A study of Homo sapiens with 9 samples.

Results

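The genes described here are 43 genes that cells switch on in response to interferon, followed in MCF10A cells that carried an ERBB2 retrovirus or were given EGF. A gene was represented by the probe sets that the platform's annotation ties to its symbol alone, and by the one with the highest mean over all 9 arrays where it had several. By that rule 42 of the 43 genes had a probe set, and these 42 are part of 19775 genes so named on the array. The other, STAT2, was not analysed here, as no probe set used was tied to it alone. MCF10A cells are human breast epithelial cells that grow indefinitely without forming tumours. All cells here were maintained in their usual medium, with 5% serum and 20 ng/ml EGF, before the media described next. The first group, labelled ERBB2 over-expression, was transduced with a pBabe retrovirus encoding the receptor tyrosine kinase ERBB2. The second group, labelled EGF stimulation, carried the empty pBabe virus and was exposed to EGF for its last 2 hours in culture, at a concentration of 50 ng/ml, and the third, the vector control, carried the empty virus alone. All cells, vector included, had been moved after infection to medium with 2% horse serum and no EGF, so that the vector cells lacked the factor they are usually grown in. Each group had 3 arrays. The labels call these biological replicates without stating if the virus was introduced anew for each, and the p-values cover no more than the spread among these arrays, which may be technical. The labels do not give the time between infection and harvest, so the length of ERBB2 exposure cannot be set beside the 2 hours of EGF.

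Interferons are secreted proteins that bind receptors on the same or neighbouring cells. The receptors activate JAK family kinases, which phosphorylate STAT proteins. The factor ISGF3, which holds STAT2 and IRF9, binds interferon-stimulated response elements (ISRE) in target promoters, and gamma-activated sites (GAS) are a second kind of element in them. The targets include proteins that block virus entry, translation and release, sensors of viral RNA, the ISG15 conjugation system, the factors of the pathway themselves and the machinery that shows peptides on MHC class I. Epithelial cells in culture can hold a low level of these transcripts without any virus present.

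Values were signal intensities on the authors' linear scale, and differences are log2 changes of signal + 16, given with their SE. A gene was called when its limma p-value, adjusted over all 32768 probe sets tested, was under 0.05. Of the 42 genes, 39 had a probe set that passed the filter on low signals and were tested, and 3 did not. The targeted gene checked the labels only in part. The brightest probe set for ERBB2 stood at 98.8 ± 23.1 in arrays labelled ERBB2, against 174 ± 48.0 in vector arrays (SD, n = 3 each), and a dimmer one was higher in the first (0.89, adjusted p = 0.008824). Which ERBB2 sequence the virus carried is not given in the labels, and the group is written as arrays labelled ERBB2. DUSP6, a phosphatase induced by ERK signalling, was at 963 ± 233 in arrays labelled ERBB2, 2789 ± 219 in EGF arrays and 9.42 ± 7.51 in vector arrays. Every array correlated best with one of its own group (9 of 9). Controls of RNA and labelling did not all behave alike. The 5'/3' signal ratio of the ACTB control probe sets was 0.737 ± 0.051, against 0.443 ± 0.063 in EGF arrays and 0.379 ± 0.055 in vector arrays (SD, n = 3 each), while that of GAPDH was 0.869, 0.812 and 0.847 in the same order. The 3' control for ribosomal RNA averaged 12587 in arrays labelled ERBB2, 2868 in EGF arrays and 3380 in vector arrays. Of 6 epithelial markers 4 were named and tested, and their summed signal was 9133 to 10022 in arrays labelled ERBB2, 12181 to 14507 in EGF arrays and 16133 to 18563 in vector arrays. In each stimulated group 3 of the 4 (KRT5, KRT14 and ITGB4) were called lower than vector and EPCAM higher. Leukocyte markers, 2 of 8 of them tested, summed to 142 to 221 in arrays labelled ERBB2, 215 to 225 in EGF arrays and 194 to 232 in vector arrays, and the defining PTPRC, CD3E and NKG7 were below the filter. Fibroblast and endothelial markers, 4 of 7 tested, summed to 467 to 651 in arrays labelled ERBB2, 540 to 580 in EGF arrays and 1375 to 1539 in vector arrays, with PDGFRB, VWF and CDH5 below the filter. The 4 did not move as a class: in arrays labelled ERBB2 DCN and COL1A1 were called lower, PECAM1 higher and COL1A2 neither, and in EGF arrays DCN alone was called, lower. The part of these differences in the results that follow was not tested. In bulk RNA, fewer cells expressing a gene and less RNA per cell cannot be told apart.

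The promoters of the genes were read from RefSeq's promoter table for GRCh38.p14, which gives 250 bases before to 50 bases after each annotated start. The table held 35 of the 43 genes. An ISRE-type motif was searched as GAAA, then any 2 bases, then GAAA, and a GAS-type motif as TTCNNNGAA, where N is any base, both of them on either strand. The 2 motifs may overlap each other, and copies of the same motif may overlap too. The ISRE-type motif was present in 25 of the 35 genes (71.4%), while 3.57% of all 35116 windows held it, which is 4.38% of 27305 genes. The GAS-type motif was present in 12 of the 35 (34.3%), and in 7.66% of all windows or 9.38% of all genes. A match is a description of the letters and does not show that a factor binds there. The 10 genes with a window but no ISRE-type match were IFI35, OAS1, XAF1, SAMD9L, CMPK2, HERC6, RIGI, STAT2, IRF1 and IRF9.

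The windows below belong to the genes whose values lead the results. IFI44L (chr1:78620198-78620497, plus strand), IFI6 (chr1:27672143-27672442, minus strand), IFIT1 (chr10:89392373-89392672, plus strand) and IRF9 (chr14:24161015-24161314, plus strand) are among those that were lower in both groups than in vector. ISG15 (chr1:1013247-1013546, plus strand) is a standard interferon target that was not called, and IFIT5 (chr10:89414318-89414617, plus strand), chosen after its values were seen, was the only gene called higher in both. Each is written 5′ to 3′ on the gene's strand, with ISRE-type matches in capitals, or for IRF9, which had none, the GAS-type match. IFI44L holds 2 copies of the motif within a repeated stretch, IFI6 holds 3, IFIT1 has 2 in the reverse orientation, ISG15 has 2 that overlap and IFIT5 has 3 in the reverse orientation close to the start.
IFI44L: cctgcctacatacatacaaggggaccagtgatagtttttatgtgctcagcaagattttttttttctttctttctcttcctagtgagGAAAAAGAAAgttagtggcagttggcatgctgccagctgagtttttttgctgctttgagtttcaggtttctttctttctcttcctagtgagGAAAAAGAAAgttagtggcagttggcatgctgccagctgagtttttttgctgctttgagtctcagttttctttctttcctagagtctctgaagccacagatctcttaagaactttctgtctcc
IFI6: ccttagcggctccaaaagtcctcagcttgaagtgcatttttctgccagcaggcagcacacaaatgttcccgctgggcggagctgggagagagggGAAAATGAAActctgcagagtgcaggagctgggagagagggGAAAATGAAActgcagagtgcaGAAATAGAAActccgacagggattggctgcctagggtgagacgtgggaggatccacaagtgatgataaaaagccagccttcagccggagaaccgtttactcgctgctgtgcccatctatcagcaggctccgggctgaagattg
IFIT1: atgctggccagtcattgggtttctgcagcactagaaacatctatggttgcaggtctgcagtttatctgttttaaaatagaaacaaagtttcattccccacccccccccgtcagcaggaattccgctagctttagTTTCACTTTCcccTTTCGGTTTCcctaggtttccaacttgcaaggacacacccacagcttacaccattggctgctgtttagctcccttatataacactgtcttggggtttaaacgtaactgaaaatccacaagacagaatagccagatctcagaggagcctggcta
IRF9: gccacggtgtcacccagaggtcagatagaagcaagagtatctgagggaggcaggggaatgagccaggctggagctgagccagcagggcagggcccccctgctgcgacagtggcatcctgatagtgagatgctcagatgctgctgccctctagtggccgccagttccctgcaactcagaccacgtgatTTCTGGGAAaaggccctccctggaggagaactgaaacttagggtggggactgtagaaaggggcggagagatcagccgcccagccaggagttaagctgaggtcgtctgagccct
ISG15: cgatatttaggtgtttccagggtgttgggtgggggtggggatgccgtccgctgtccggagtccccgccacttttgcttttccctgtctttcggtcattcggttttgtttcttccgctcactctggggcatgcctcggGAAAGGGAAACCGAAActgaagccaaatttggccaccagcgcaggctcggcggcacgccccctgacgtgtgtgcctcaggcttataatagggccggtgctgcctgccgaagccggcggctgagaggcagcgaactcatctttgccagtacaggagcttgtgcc
IFIT5: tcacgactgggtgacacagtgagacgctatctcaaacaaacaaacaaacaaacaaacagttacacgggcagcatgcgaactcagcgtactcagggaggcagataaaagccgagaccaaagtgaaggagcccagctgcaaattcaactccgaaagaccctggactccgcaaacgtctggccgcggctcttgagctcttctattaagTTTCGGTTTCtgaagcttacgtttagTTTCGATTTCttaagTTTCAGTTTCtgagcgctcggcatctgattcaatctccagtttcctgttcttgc

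**Figure D1:**
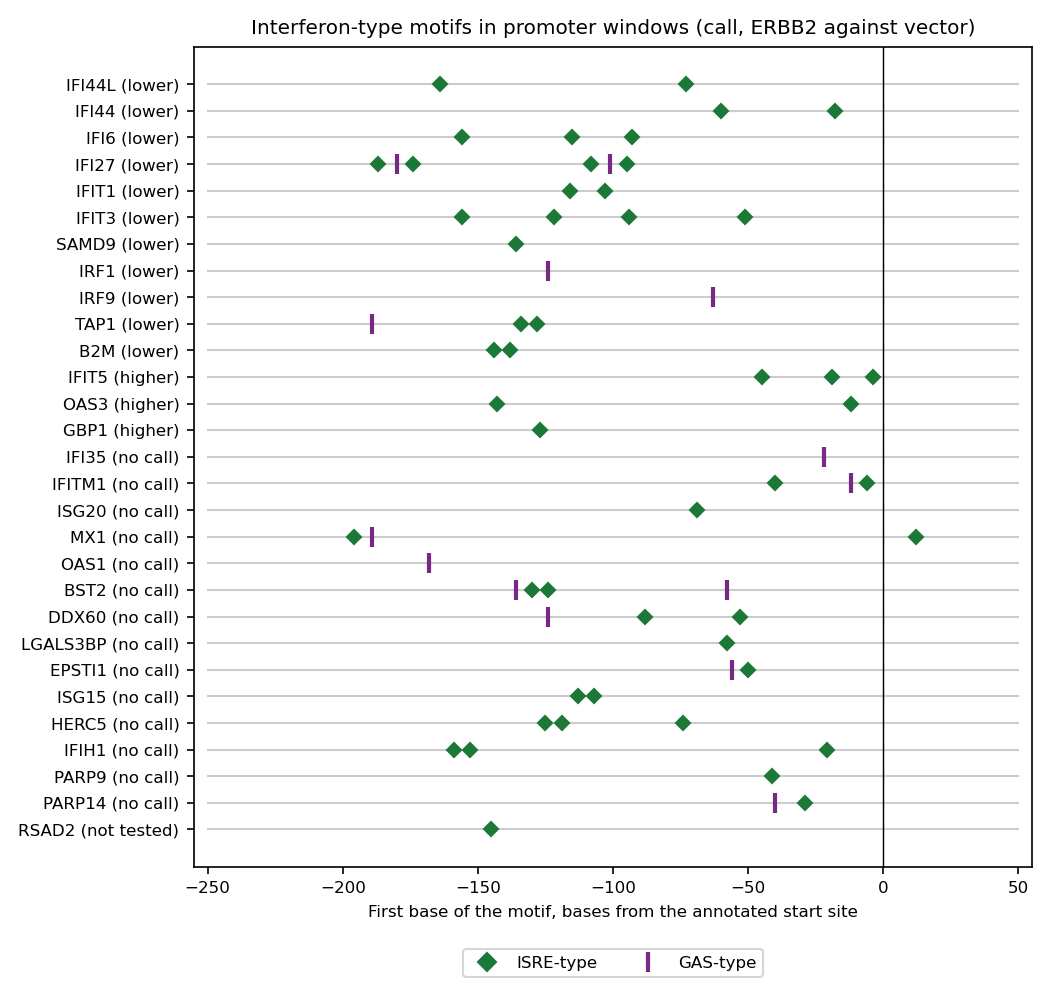
Positions of ISRE-type (diamonds) and GAS-type (bars) motifs in the promoter windows of the genes that hold either one, with the first base of the motif on the x axis in bases from the annotated start. Genes are ordered by their call in the arrays labelled ERBB2 against vector. Where a gene has several annotated starts, each match is placed from its own start. IFI27 thus shows 1 pair of ISRE-type motifs from both of its starts. IFI44 likewise shows 1 ISRE-type motif from different starts, at -18 and -60. ISRE-type motifs lie upstream of the start in genes that were lower, higher and not called, with the match of MX1 at 12 the only one past the start.

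In arrays labelled ERBB2, 15 of the 39 tested genes fell relative to vector and 3 rose, while 21 passed no test. This is 38.5% lower, against a background of 25.1% of all 13723 genes tested, and 7.69% higher, against 20.8%. In EGF arrays 17 fell and 2 rose, which is 43.6% lower against a background of 19.0%, and 5.13% higher against 17.2%. The median log2 change of the 39 genes was -0.31 in arrays labelled ERBB2 and -0.37 in EGF arrays, beside medians over all genes of -0.07 and -0.10. Both comparisons use the same 3 vector arrays. The 12 genes called lower in both were IFI44L, IFI44, IFI6, IFIT1, IFIT3, TRIM22, GBP2, IRF1, IRF7, IRF9, TAP1 and B2M. The response was not uniform: 15 genes were called in neither comparison, among them ISG15, MX1, OAS1 and OAS2, and 26 of the 39 were called in at least 1 of the 3 comparisons made.

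**Figure D2:**
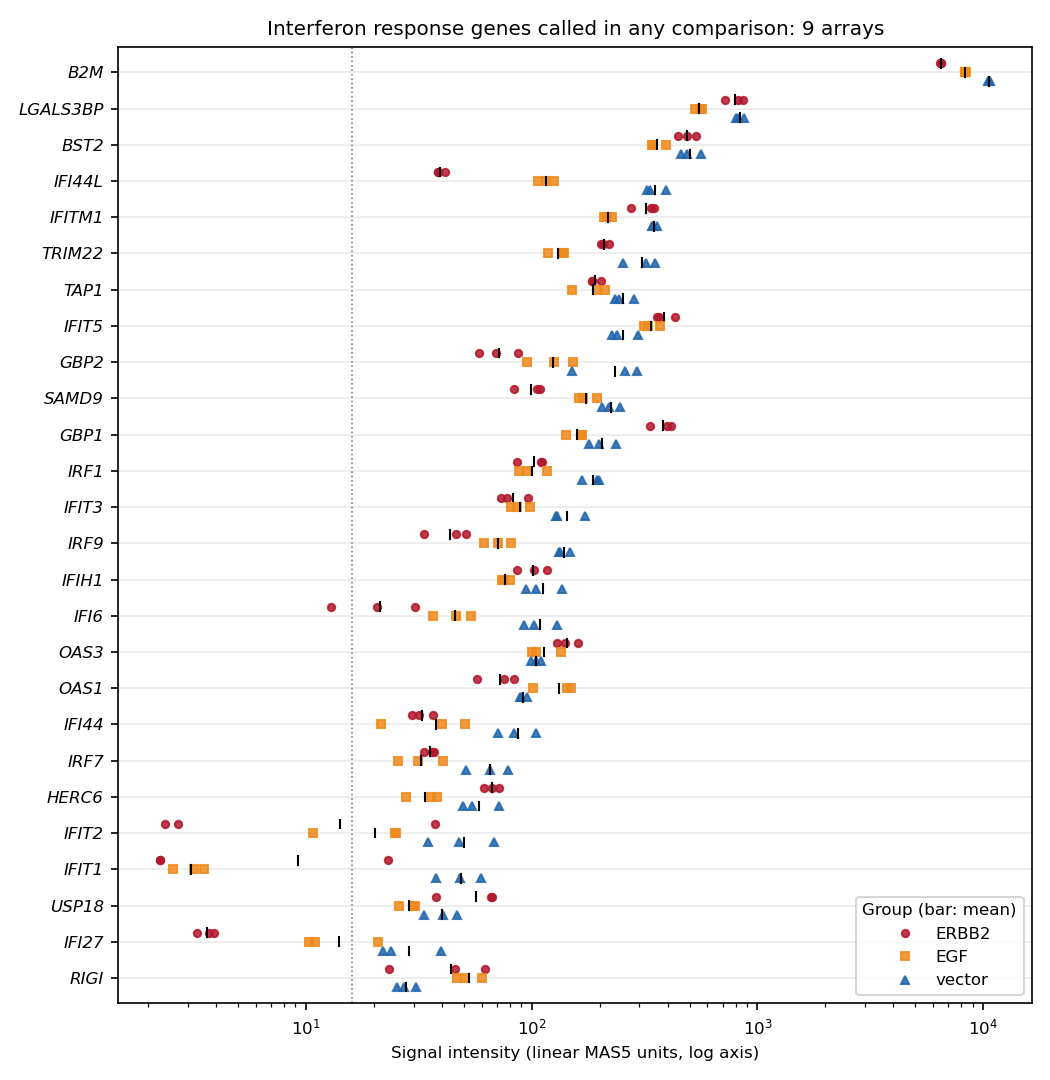
Signal of the 26 interferon response genes called in at least 1 comparison on all 9 arrays, on a log axis, with circles for arrays labelled ERBB2, squares for EGF, triangles for vector and a bar at each group's mean. The dotted line marks a signal of 16, the value added before log2. IFI44L shows 3 separate clusters, at 38.4 to 41.2 in arrays labelled ERBB2, 107 to 125 in EGF arrays and 323 to 395 in vector arrays, while in GBP1 the arrays labelled ERBB2 stand to the right of the others.

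Of the 5 IFI genes, all named for their induction by interferon, 4 fell in arrays labelled ERBB2 and 3 in EGF arrays. IFI44L, a cytoplasmic protein with reported antiviral activity, had signals of 38.4, 38.4 and 41.2 in arrays labelled ERBB2, 125, 107 and 115 in EGF arrays and 395, 335 and 323 in vector arrays. The groups did not overlap, and both stimulated groups were below vector. Its log2 change was -2.72 ± 0.14, adjusted p = 5.276e-12 in arrays labelled ERBB2 and -1.47 ± 0.14, adjusted p = 7.744e-08 in EGF arrays. Its neighbour on chromosome 1, IFI44, read 29.6, 31.7 and 36.8 in arrays labelled ERBB2, 40.3, 21.6 and 50.9 in EGF arrays and 105, 83.8 and 71.2 in vector arrays. All 3 vector arrays were the highest, and the other groups overlapped each other. IFI44 fell by 1.07 and 0.96 on the log2 scale in arrays labelled ERBB2 and in EGF arrays (adjusted p = 0.0005974 and 0.002269).

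IFI6, a small membrane protein that limits apoptosis, read 30.4, 20.7 and 12.9 in arrays labelled ERBB2, 54.0, 46.4 and 36.5 in EGF arrays and 103, 92.8 and 129.9 in vector arrays. As for IFI44L, the groups did not overlap, with arrays labelled ERBB2 the lowest and vector the highest. The log2 changes were -1.75 ± 0.21, adjusted p = 1.276e-06 in arrays labelled ERBB2 and -1.01 ± 0.21, adjusted p = 0.00106 in EGF arrays. IFI27, a related small protein often used as a marker of interferon exposure, had signals of 3.31, 3.91 and 3.72 in arrays labelled ERBB2, 20.9, 10.4 and 11.0 in EGF arrays and 39.7, 22.1 and 23.9 in vector arrays. Its arrays fall in the same order without overlap, but only the drop in arrays labelled ERBB2 was called (-1.16 ± 0.27, adjusted p = 0.001834), and the EGF difference of -0.56 was not (adjusted p = 0.1358). These low signals make the size of the change depend on the constant added before log2, with -2.62 at 1 and -0.45 at 64. IFI35, which binds the interferon-induced protein NMI, averaged 48.6 ± 2.37 in arrays labelled ERBB2, 49.2 ± 8.38 in EGF arrays and 67.1 ± 7.86 in vector arrays, with no call (adjusted p = 0.1261 and 0.159).

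The IFIT proteins bind foreign RNA and block its translation. The 4 IFIT genes lie together on chromosome 10 and did not move together. IFIT1, which recognises RNA with an incomplete cap, read 2.26, 23.2 and 2.27 in arrays labelled ERBB2, 2.59, 3.55 and 3.21 in EGF arrays and 59.8, 37.6 and 48.3 in vector arrays. Except for ERBB2 replicate 2, every stimulated array was close to the bottom of the scale. Its log2 change was -1.44 ± 0.31, adjusted p = 0.0007446 in arrays labelled ERBB2 and -1.74 ± 0.31, adjusted p = 0.0001904 in EGF arrays, and with added constants of 1 and 64 the 2 changes were -2.94 and -0.63 in arrays labelled ERBB2 and -3.57 and -0.74 in EGF arrays. IFIT2, a partner of IFIT1 and IFIT3, read 2.73, 2.38 and 37.5 in arrays labelled ERBB2, 24.7, 10.8 and 25.2 in EGF arrays and 47.8, 68.1 and 34.7 in vector arrays. ERBB2 replicate 3 lay among the vector arrays and the other ERBB2 arrays near 0. The change in arrays labelled ERBB2 was called (-1.29 ± 0.35, adjusted p = 0.005268) and the one with EGF was not (-0.86, adjusted p = 0.06957). The size of the change in arrays labelled ERBB2 lay between -2.65 and -0.57 over 19 alternatives. A second, dimmer IFIT2 probe set was not called there (-0.20, adjusted p = 0.6576), with 2 of the 3 arrays labelled ERBB2 above every vector array.

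IFIT3, which stabilises IFIT1 on RNA, read 73.0, 78.0 and 95.9 in arrays labelled ERBB2, 81.2, 98.8 and 86.5 in EGF arrays and 129.7, 128 and 173 in vector arrays. Both stimulated groups lay below all vector arrays and overlapped each other. IFIT3 fell by 0.69 on the log2 scale in arrays labelled ERBB2 and by 0.60 in EGF arrays (adjusted p = 0.001491 and 0.007237); without vector replicate 3 the EGF call ended (-0.47, adjusted p = 0.05809). IFIT5, which binds a broad range of RNA ends, went the other way, with 431, 359 and 366 in arrays labelled ERBB2, 370.0, 314 and 327 in EGF arrays and 295, 238 and 228 in vector arrays. No stimulated array was as low as the highest vector array. It rose by 0.58 in arrays labelled ERBB2 (adjusted p = 0.0004957) and by 0.40 in EGF arrays (adjusted p = 0.01511). The EGF call on IFIT5 ended without vector replicate 2 (adjusted p = 0.05449), without vector replicate 3 (0.07937), without EGF replicate 1 (0.07562) or without a variance trend (0.0675).

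**Figure D3:**
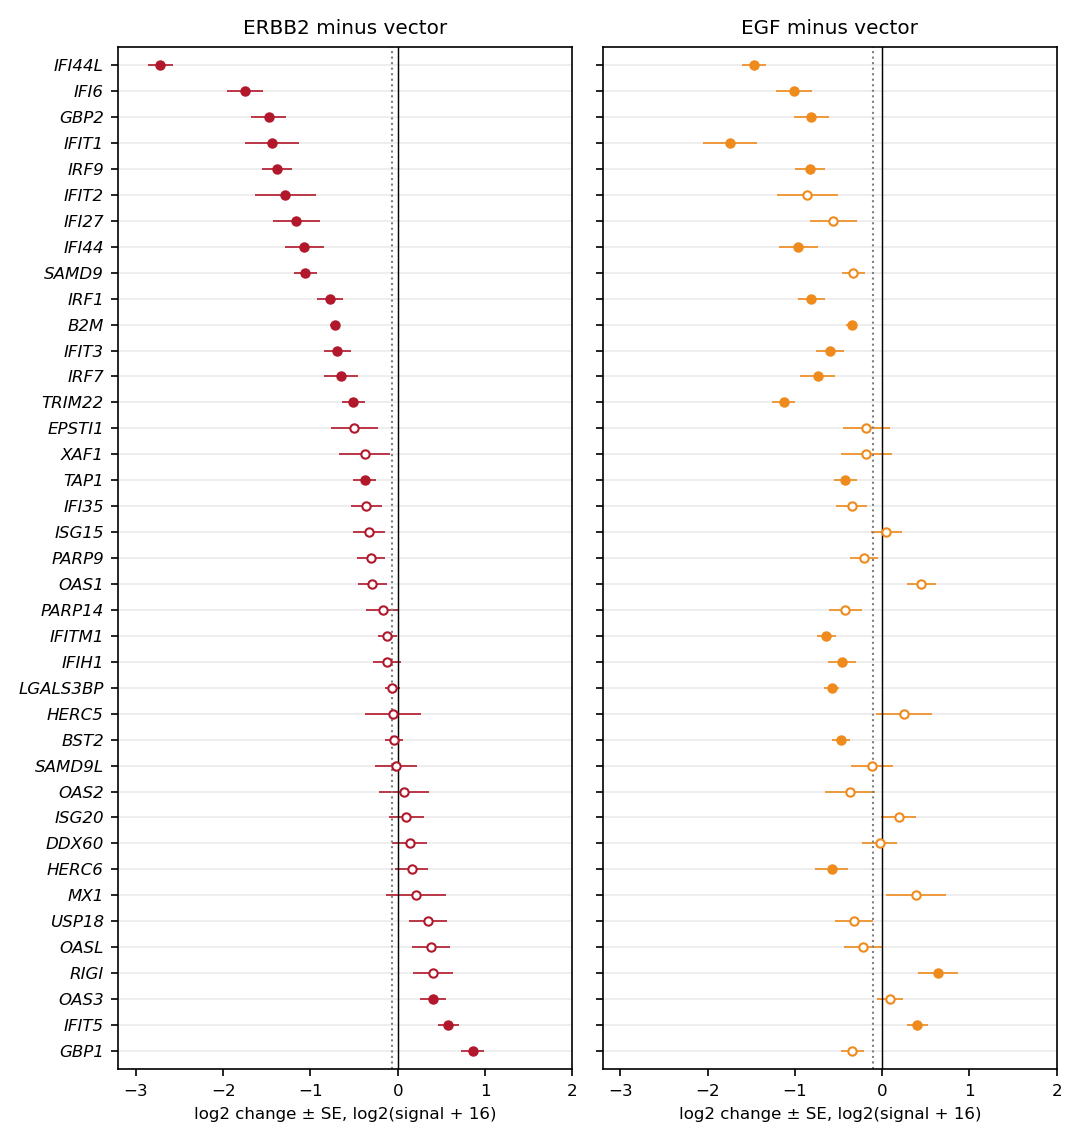
Log2 changes of signal + 16 (x axis, point and SE) of the 39 tested genes against vector, in arrays labelled ERBB2 on the left and in EGF arrays on the right, in 1 order of genes set by the left panel. Filled points are called at adjusted p under 0.05, and the dotted lines mark the medians of all genes, -0.07 and -0.10. Points on the left run from -2.72 for IFI44L to 0.86 for GBP1, and on the right from -1.74 for IFIT1 to 0.64 for RIGI.

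The oligoadenylate synthetases make the messenger that activates RNase L. Of this family, OAS3 alone was called against vector on its brightest probe set, higher in arrays labelled ERBB2. OAS1 read 75.3, 83.8 and 57.5 in arrays labelled ERBB2, 144, 149.7 and 102 in EGF arrays and 95.7, 89.3 and 89.0 in vector arrays, so that vector lay between the other groups without overlap. Neither difference from vector was called (-0.29, adjusted p = 0.1837 in arrays labelled ERBB2 and 0.45, adjusted p = 0.05359 in EGF arrays), although the EGF one passed in 9 of 20 alternatives. OAS3 read 139.9, 161 and 129 in arrays labelled ERBB2, 100.3, 135 and 105 in EGF arrays and 109.6, 104 and 99.5 in vector arrays. The arrays labelled ERBB2 were above every vector array, and the EGF arrays overlapped both groups. OAS3 rose by 0.40 in arrays labelled ERBB2 (adjusted p = 0.03554), a call that ended without the filter (0.05385) or without vector replicate 2 (0.07052), vector replicate 3 (0.09692), ERBB2 replicate 1 (0.05846) or ERBB2 replicate 2 (0.1416). The second, dimmer OAS3 probe set also rose (1.19, adjusted p = 0.001916). OAS2 and OASL, the last of which lacks synthetase activity, were not called against vector (log2 changes from -0.37 to 0.38). OAS2 was dim, with group means of 17.6 in arrays labelled ERBB2, 8.9 in EGF arrays and 16.2 in vector arrays.

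IFITM1, BST2 and LGALS3BP fell with EGF and were not called in arrays labelled ERBB2. IFITM1, which hinders virus fusion at the cell surface, read 347, 339 and 276 in arrays labelled ERBB2, 208, 228 and 215 in EGF arrays and 343, 359 and 342 in vector arrays. The EGF arrays were the lowest without overlap, and its change was -0.64 ± 0.11, adjusted p = 0.0001362 in EGF arrays and -0.12 in arrays labelled ERBB2 (adjusted p = 0.4281). BST2, or tetherin, holds budding virions at the membrane and read 533, 489 and 447 in arrays labelled ERBB2, 342, 344 and 392 in EGF arrays and 459, 562 and 488 in vector arrays. Here too the EGF arrays were the lowest, with -0.47 ± 0.10, adjusted p = 0.001952, while arrays labelled ERBB2 overlapped vector (-0.04, adjusted p = 0.8188). LGALS3BP, a secreted glycoprotein that binds galectins, read 859, 816 and 721 in arrays labelled ERBB2, 558, 531 and 570.4 in EGF arrays and 807, 874 and 819 in vector arrays. It showed the same arrangement, with -0.58 ± 0.09, adjusted p = 4.107e-05 in EGF arrays and -0.06 in arrays labelled ERBB2 (adjusted p = 0.6196).

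SAMD9, a restriction factor for poxviruses, read 109, 83.9 and 105 in arrays labelled ERBB2, 194, 169 and 161 in EGF arrays and 247, 221 and 205 in vector arrays. The 3 groups did not overlap. The change was called in arrays labelled ERBB2 (-1.06 ± 0.13, adjusted p = 2.454e-06) and not in EGF arrays (-0.33, adjusted p = 0.07328). Its neighbour SAMD9L was not called (-0.02 and -0.12). SAMD9L was dim, at group means of 21.1 in arrays labelled ERBB2, 18.9 in EGF arrays and 22.15 in vector arrays. TRIM22, a ubiquitin ligase with antiviral activity, read 207, 220.4 and 203 in arrays labelled ERBB2, 139, 119 and 136 in EGF arrays and 350.6, 320.4 and 254 in vector arrays. Vector was the highest and EGF the lowest, with -0.51 ± 0.13, adjusted p = 0.003291 in arrays labelled ERBB2 and -1.13 ± 0.13, adjusted p = 1.138e-06 in EGF arrays.

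The guanylate-binding proteins GBP1 and GBP2, GTPases best known as targets of interferon gamma, are neighbours on chromosome 1 and moved in opposite directions in arrays labelled ERBB2. GBP1 read 416, 398 and 335 in arrays labelled ERBB2, 166, 166 and 142 in EGF arrays and 237, 198 and 179 in vector arrays. Arrays labelled ERBB2 were the highest and EGF arrays the lowest, without overlap. GBP1 rose by 0.86 in arrays labelled ERBB2 (adjusted p = 1.59e-05), and so did its 2 further tested probe sets (1.12 and 1.43). With EGF its probe sets disagreed: the brightest was -0.34 (adjusted p = 0.05313), the next 0.01 (adjusted p = 0.9688) and the last 0.60, called higher (adjusted p = 0.001977). GBP2 read 87.4, 58.2 and 69.7 in arrays labelled ERBB2, 95.4, 153 and 125 in EGF arrays and 293, 259 and 151 in vector arrays. The EGF and vector arrays overlapped by 1 array, and the arrays labelled ERBB2 were below both. It fell by 1.48 on the log2 scale in arrays labelled ERBB2 (adjusted p = 6.931e-06) and by 0.81 in EGF arrays (adjusted p = 0.005052), and its second probe set also fell in both (by 1.30 and 1.55). Members of this family are similar in sequence, so their probe sets may share signal.

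The remaining effectors tested were not called in any comparison: ISG20, an exonuclease of viral RNA, MX1, a dynamin-like GTPase, DDX60, a helicase-like protein, XAF1, which promotes apoptosis, and EPSTI1. Their log2 changes against vector lay between -0.50 (EPSTI1 in arrays labelled ERBB2) and 0.39 (MX1 in EGF arrays). MX1, a standard marker of the type I response, averaged 13.8 ± 13.9 in arrays labelled ERBB2, 15.4 ± 3.68 in EGF arrays and 8.41 ± 6.76 in vector arrays, all below the added constant of 16. In the same order of groups, XAF1 averaged 11.2, 13.9 and 17.9 and EPSTI1 9.9, 16.4 and 20.4, also close to that constant. MX2, RSAD2 (viperin) and CMPK2 failed the filter, with group means between 4.72 for MX2 in EGF arrays and 16.8 for MX2 in vector arrays. Whether such low signals exceed background is unknown, because detection calls were not used here.

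The ISG15 system attaches a ubiquitin-like protein to others. ISG15 itself read 51.3, 63.0 and 49.6 in arrays labelled ERBB2, 61.2, 76.8 and 92.3 in EGF arrays and 80.7, 75.7 and 62.7 in vector arrays, with overlapping groups. Its differences from vector were not called (-0.33, adjusted p = 0.1558 in arrays labelled ERBB2 and 0.05, adjusted p = 0.8686 in EGF arrays). USP18, which removes ISG15 and also restrains the type I receptor, read 66.7, 65.8 and 37.7 in arrays labelled ERBB2, 25.8, 30.5 and 29.8 in EGF arrays and 33.2, 46.9 and 40.3 in vector arrays. The EGF arrays lay below all vector arrays, and the arrays labelled ERBB2 overlapped vector, yet neither difference passed the test (0.35, adjusted p = 0.214, and -0.32, adjusted p = 0.2928). HERC5, the main ISG15 ligase of human cells, was not called (-0.05 and 0.25). Its signal was low, with group means of 10.0 in arrays labelled ERBB2, 16.6 in EGF arrays and 10.6 in vector arrays. HERC6, its neighbour on chromosome 4 and the main ISG15 ligase of the mouse, read 61.5, 66.9 and 71.8 in arrays labelled ERBB2, 27.9, 35.7 and 37.9 in EGF arrays and 54.4, 71.5 and 49.9 in vector arrays. The EGF arrays were the lowest without overlap, with -0.58 ± 0.19, adjusted p = 0.02573 against vector, while the arrays labelled ERBB2 lay among the vector arrays (0.16, adjusted p = 0.55). The EGF call on HERC6 ended in 6 of 20 alternatives, among them equal array medians (0.1167) and the fits without vector replicate 2 (0.1234) or without EGF replicate 1 (0.09803).

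Of the 2 sensors of viral RNA, RIGI was called higher and IFIH1 lower with EGF on their brightest probe sets. RIGI, which detects short RNA with an unprocessed end, read 45.8, 62.3 and 23.3 in arrays labelled ERBB2, 46.8, 60.3 and 50.6 in EGF arrays and 25.4, 30.7 and 27.2 in vector arrays. EGF arrays were above every vector array, and arrays labelled ERBB2 spanned both. It rose by 0.64 in EGF arrays (adjusted p = 0.04569) and was not called in arrays labelled ERBB2 (0.40, adjusted p = 0.2024). IFIH1 (MDA5), the sensor of long double-stranded RNA, read 102, 117 and 85.8 in arrays labelled ERBB2, 80.1, 75.3 and 73.6 in EGF arrays and 136, 94.8 and 104 in vector arrays. The EGF arrays were the lowest, with -0.46 ± 0.16, adjusted p = 0.03939, and the arrays labelled ERBB2 overlapped vector (-0.12, adjusted p = 0.62). Both EGF calls were close to the threshold, and further probe sets did not all share their sign. RIGI's were at -0.13 and 0.65 and the tested one of IFIH1 at 0.21 with EGF, none of them called, and averaged over its probe sets IFIH1 was at -0.19 (adjusted p = 0.2865). The call on RIGI ended in 9 of 20 alternatives, including the omission of any one of the vector or EGF arrays (adjusted p from 0.06467 to 0.1521). The call on IFIH1 ended in 10, including the omission of vector replicate 1 (0.1897), vector replicate 3 (0.06219) or any one EGF array (from 0.06192 to 0.1051).

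The 3 transcription factors tested among the 43 genes fell in both groups, where 25.1% and 19.0% of all genes fell. Factors outside the 43 did not all follow. IRF2 and IRF5 were called lower in arrays labelled ERBB2 (-0.77 and -0.61) and not called with EGF (-0.23 and -0.31). The first call on IRF5 ended without vector replicate 2 (adjusted p = 0.06739). IRF3 was called in neither comparison with vector (-0.36 in arrays labelled ERBB2 and 0.21 with EGF). IRF9, the DNA-binding part of ISGF3, read 46.3, 51.4 and 33.4 in arrays labelled ERBB2, 70.6, 61.4 and 81.0 in EGF arrays and 148, 133 and 134 in vector arrays. The groups did not overlap and kept the order seen for IFI44L and IFI6. The log2 changes were -1.38 ± 0.17, adjusted p = 1.498e-06 in arrays labelled ERBB2 and -0.83 ± 0.17, adjusted p = 0.0008114 in EGF arrays. IRF1, a factor induced mainly by interferon gamma, read 111, 86.3 and 110.3 in arrays labelled ERBB2, 117, 87.8 and 95.2 in EGF arrays and 196, 199 and 168 in vector arrays. All vector arrays were above the rest, and the stimulated groups overlapped. IRF1 fell by 0.78 on the log2 scale in arrays labelled ERBB2 and by 0.81 in EGF arrays (adjusted p = 0.0002382 and 0.0002709). IRF7, which amplifies type I interferon production, read 36.8, 33.4 and 36.3 in arrays labelled ERBB2, 40.5, 25.7 and 31.3 in EGF arrays and 51.2, 65.7 and 78.9 in vector arrays. It showed the same arrangement at lower signal and fell by 0.65 and 0.74 (adjusted p = 0.01614 and 0.009086). Without vector replicate 3 both calls on IRF7 ended (adjusted p = 0.08805 in arrays labelled ERBB2 and 0.05818 in EGF arrays).

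Antigen presentation was represented by TAP1 and B2M, and both fell in both groups. B2M, the light chain of MHC class I, read 6491, 6403 and 6516 in arrays labelled ERBB2, 8402, 8259 and 8298 in EGF arrays and 10519, 10754 and 10620.0 in vector arrays. The spread within each group was small beside the gaps between groups, with log2 changes of -0.72 ± 0.06, adjusted p = 2.862e-09 in arrays labelled ERBB2 and -0.35 ± 0.06, adjusted p = 6.135e-05 in EGF arrays. A second bright B2M probe set fell by 0.67 and 0.28. TAP1, a subunit of the transporter that brings peptides into the endoplasmic reticulum, read 184, 185 and 202 in arrays labelled ERBB2, 212, 152 and 194 in EGF arrays and 243, 284 and 234 in vector arrays. Vector arrays were the highest, and the stimulated groups overlapped. TAP1 fell by 0.38 and 0.42 (adjusted p = 0.02522 and 0.01853). The call in arrays labelled ERBB2 ended without vector replicate 2 (0.1167), ERBB2 replicate 1 (0.06337) or ERBB2 replicate 2 (0.06797), and the EGF call without vector replicate 2 (0.09084) or EGF replicate 2 (0.1244). With equal array medians neither call held (0.05312 in arrays labelled ERBB2 and 0.1579 in EGF arrays). PARP9 and PARP14, ADP-ribosyltransferases that act with interferon signalling, were not called (log2 changes from -0.42 to -0.17).

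In 23 genes more than 1 probe set named the gene, which gave 31 further probe sets, 20 of them tested. For genes called in arrays labelled ERBB2, 11 of 11 further probe sets had the same sign and 7 were called the same way. For genes called in EGF arrays, 7 of 9 had the same sign and 3 were called the same way, and no further probe set was called the other way in either comparison. For genes called between arrays labelled ERBB2 and EGF arrays, 5 of 7 had the same sign and 4 were called the same way. Calls were made at both low and high signal, but not in equal shares. Among the 20 brighter genes 9 fell in arrays labelled ERBB2 and 12 in EGF arrays, and among the 19 dimmer ones 6 and 5. The shares of the dimmer genes, 31.6% and 26.3%, lay closer to the 25.1% and 19.0% over all genes than those of the brighter ones. The excess of falls over all genes was thus larger among the brighter genes. Shares of all genes at matching signal were not counted.

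The direct comparison of arrays labelled ERBB2 with EGF arrays, which needs no vector array, called 7 genes lower and 7 higher, or 17.9% each, against backgrounds of 16.1% lower and 12.8% higher. The median log2 difference was -0.01, beside 0.01 over all genes. Lower in arrays labelled ERBB2 than in EGF arrays were IFI44L (-1.25 ± 0.14, adjusted p = 9.784e-07), IFI6 (-0.74 ± 0.21, adjusted p = 0.0142), OAS1 (-0.74 ± 0.17, adjusted p = 0.002633), SAMD9 (-0.73 ± 0.13, adjusted p = 0.0004217), GBP2 (-0.67 ± 0.20, adjusted p = 0.02023), IRF9 (-0.55 ± 0.17, adjusted p = 0.022) and B2M (-0.36 ± 0.06, adjusted p = 6.052e-05). Of these, OAS1 is the only one that was called in neither comparison with vector, where its values lay on opposite sides. Higher in arrays labelled ERBB2 were GBP1 (1.19 ± 0.13, adjusted p = 6.969e-07), HERC6 (0.73 ± 0.19, adjusted p = 0.006479), USP18 (0.68 ± 0.22, adjusted p = 0.02641), TRIM22 (0.62 ± 0.13, adjusted p = 0.001152), IFITM1 (0.53 ± 0.11, adjusted p = 0.001267), LGALS3BP (0.51 ± 0.09, adjusted p = 0.0001855) and BST2 (0.43 ± 0.10, adjusted p = 0.004648). GBP1, whose 3 tested probe sets were all higher in this comparison (further ones 1.11 and 0.83), had the largest of them. TRIM22 was below vector in both groups, and IFITM1, LGALS3BP, BST2 and HERC6 were called below vector with EGF alone.

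Several of these 14 direct differences depended on single arrays. IFI6 was not called without ERBB2 replicate 3 (adjusted p = 0.07252) or EGF replicate 1 (0.07045). IRF9 was not called without ERBB2 replicate 3 (0.1017), EGF replicate 1 (0.05584) or EGF replicate 3 (0.1058). The call on GBP2 ended in 7 of 20 alternatives, among them ERBB2 replicates 2 and 3 and EGF replicates 2 and 3 left out singly (0.05499 to 0.1064). The second tested GBP2 probe set had the other sign here and was not called (0.25, adjusted p = 0.466). The call on USP18 ended in 8, among them ERBB2 replicates 1 and 2 and each EGF replicate left out singly (0.05076 to 0.1071). For B2M the call ended where all its probe sets, 1 of them dim, were averaged (0.2521). IFIT2, not called in the main test (-0.43, adjusted p = 0.4243), was lower in arrays labelled ERBB2 once ERBB2 replicate 3 was left out (-0.94, adjusted p = 0.02995). The calls on IFI44L, OAS1, SAMD9, GBP1, HERC6, TRIM22, IFITM1, LGALS3BP and BST2 held in all 20 alternatives.

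**Figure D4:**
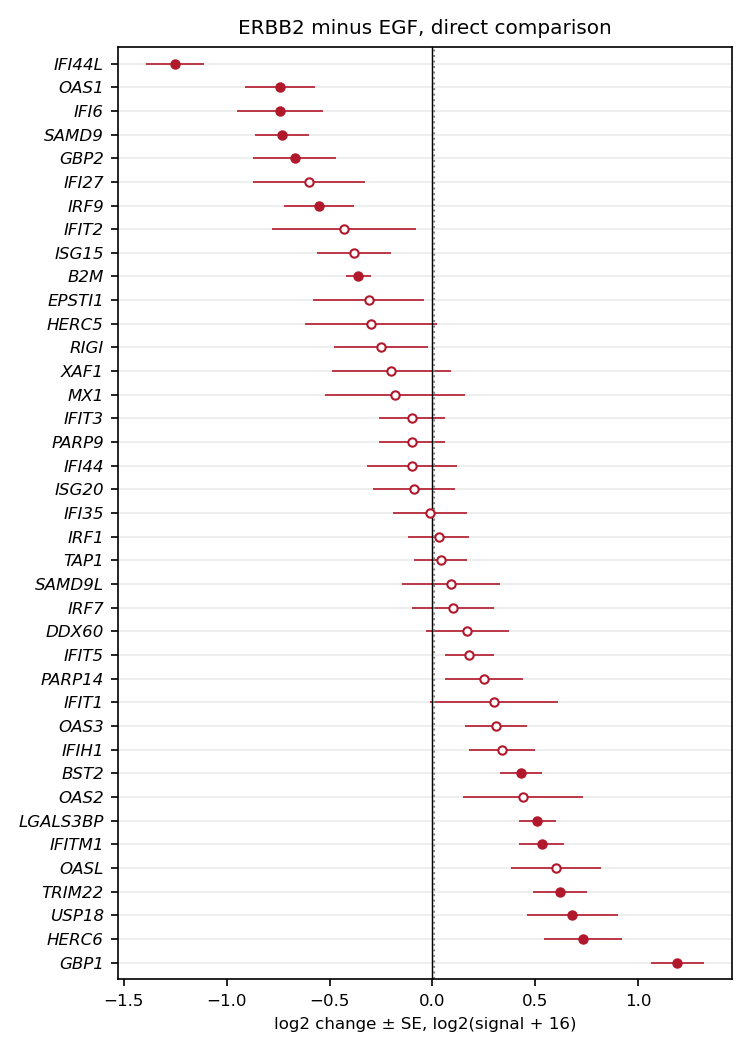
Log2 difference of signal + 16 (x axis, point and SE) between arrays labelled ERBB2 and EGF arrays for the 39 tested genes, sorted by size. Filled points are called at adjusted p under 0.05, and the dotted line marks the median of all genes, 0.01. The 7 filled points on the left start at -1.25 for IFI44L, and the 7 on the right end at 1.19 for GBP1.

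Lists of ligands, receptors and signalling genes were read beside the 43 genes, against the same shares of all genes called in arrays labelled ERBB2 (25.1% lower and 20.8% higher) and in EGF arrays (19.0% and 17.2%). No ligand was called in any comparison among the 3 of 8 tested, IFNE, IFNL1 and IFNL2, all at low signal, and IFNB1, at group means of 1.45, 4.58 and 5.69 in arrays labelled ERBB2, EGF and vector, failed the filter. Of 5 receptor chains tested, 2 fell and 2 rose in arrays labelled ERBB2 (40% each), and 2 fell and 1 rose in EGF arrays (40% and 20%). IFNGR1, the ligand-binding chain of the interferon gamma receptor, read 939.6, 989.7 and 905 in arrays labelled ERBB2, 1665, 1558 and 1523 in EGF arrays and 3094, 3091 and 2721 in vector arrays. The groups were far apart, with -1.63 ± 0.08, adjusted p = 1.99e-12 in arrays labelled ERBB2 and -0.90 ± 0.08, adjusted p = 2.518e-08 in EGF arrays. Its partner IFNGR2 rose by 0.57 in arrays labelled ERBB2 and 0.71 in EGF arrays (adjusted p = 1.113e-05 and 1.281e-06). IL10RB, a chain shared with the interferon lambda receptor, fell by 1.10 and 0.44 (adjusted p = 1.442e-06 and 0.01651), and the EGF call on it ended with equal array medians (0.1482) or without any one of vector replicates 2 and 3 or EGF replicates 2 and 3 (0.05614 to 0.06284). Of the type I receptor, IFNAR2 rose in arrays labelled ERBB2 (0.64, adjusted p = 0.001081) and was at -0.02 with EGF (adjusted p = 0.9362), and IFNAR1 was not called (-0.35 and -0.34, adjusted p = 0.1164 and 0.1459).

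Of the 4 kinases and STATs tested, JAK1, which serves every interferon receptor, fell in both groups. It read 509, 527 and 482 in arrays labelled ERBB2, 754, 749.6 and 614 in EGF arrays and 1054, 1239 and 1129 in vector arrays, with -1.15 ± 0.10, adjusted p = 7.825e-09 in arrays labelled ERBB2 and -0.68 ± 0.10, adjusted p = 1.569e-05 in EGF arrays. Its 2 dimmer tested probe sets also fell with EGF (-0.45 and -1.20) but were not called in arrays labelled ERBB2 (-0.28 and 0.21, adjusted p = 0.08399 and 0.275), so the size of the fall depends on the probe set. STAT3, which also signals for other cytokines, fell in EGF arrays (-0.45 ± 0.10, adjusted p = 0.001306) and was not called in arrays labelled ERBB2 (-0.24, adjusted p = 0.05425). This too depended on the probe set: another of STAT3 was called lower in arrays labelled ERBB2 (-0.67, adjusted p = 4.725e-05) and not in EGF arrays (-0.17, adjusted p = 0.2715).

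Among 12 sensing and adaptor genes tested, 4 fell and 1 rose in arrays labelled ERBB2 (33.3% and 8.33%), and 2 fell and 1 rose in EGF arrays (16.7% and 8.33%). The shares that fell are near the 25.1% and 19.0% over all genes. TLR3, an endosomal receptor for double-stranded RNA, fell by 1.55 and 1.17 in arrays labelled ERBB2 and in EGF arrays (adjusted p = 5.133e-08 and 4.502e-06), and MAVS, the adaptor of RIGI and IFIH1, by 0.85 and 0.57 (adjusted p = 5.622e-06 and 0.0008468). Further MAVS probe sets were all called lower in arrays labelled ERBB2. With EGF they were split: -0.71 was called (adjusted p = 0.002067), and -0.13 and -0.33 were not (adjusted p = 0.3902 and 0.1492). CGAS, the sensor of cytosolic DNA, rose by 1.17 and 0.85 (adjusted p = 0.000557 and 0.01126), with the EGF call lost without vector replicate 1 (0.05415), EGF replicate 3 (0.104) or the variance trend (0.0575). Another tested CGAS probe set was not called in arrays labelled ERBB2 (0.33, adjusted p = 0.2661) and was called higher in EGF arrays (0.83, adjusted p = 0.007095). Of 8 negative regulators, 5 fell (62.5%, against 25.1% of all genes) and none rose in arrays labelled ERBB2, while 4 fell (50.0%, against 19.0%) and 2 rose (25%, against 17.2%) in EGF arrays. SOCS3, an inhibitor of JAK kinases, read 28.7, 26.0 and 20.4 in arrays labelled ERBB2, 11.9, 18.2 and 10.4 in EGF arrays and 83.5, 68.3 and 70.9 in vector arrays. Vector arrays were the highest without overlap, with -1.14 ± 0.21, adjusted p = 0.0002367 in arrays labelled ERBB2 and -1.62 ± 0.21, adjusted p = 8.044e-06 in EGF arrays. IRF2BP2, a co-repressor of IRF2, was lower in arrays labelled ERBB2 (-0.40) and higher in EGF arrays (0.54) than in vector, with a direct difference of -0.94 ± 0.09, adjusted p = 2.043e-07. Averaged over all their probe sets, neither SOCS3 nor IRF2BP2 was called in arrays labelled ERBB2 (-0.27, adjusted p = 0.1683, and -0.12, adjusted p = 0.3145). PTPN2, another of the 5 that fell there (-0.29, adjusted p = 0.01621), also lost its call when averaged (-0.1, adjusted p = 0.5351). The share that fell thus depends on the choice of probe set. PTPN11 was not called there on its brightest probe set (0.15, adjusted p = 0.1161). Some dimmer ones were called higher (0.81 and 1.34, adjusted p = 0.0001316 and 0.001608).

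Interferon-stimulated genes outside the 43 and the MHC class I pathway were read from lists chosen with earlier results of these data known. Of 21 such stimulated genes tested, 10 fell and 3 rose in arrays labelled ERBB2, which is 47.6% against 25.1% of all genes and 14.3% against 20.8%. In EGF arrays 7 fell and 2 rose, or 33.3% against 19.0% and 9.52% against 17.2%. The share that fell with EGF depends on the scaling. With equal array medians the calls on IFITM2 (adjusted p = 0.1906), IFITM3 (0.2046), TRIM25 (0.1485) and NMI (0.1259) ended. That on APOL6 ended without vector replicate 2 (0.09147) or EGF replicate 2 (0.08742). In the direct comparison 8 were lower and 2 higher in arrays labelled ERBB2, or 38.1% against 16.1% and 9.52% against 12.8%. TNFSF10 (TRAIL), a death ligand, had the largest change in both, with 0.364, 17.8 and 17.6 in arrays labelled ERBB2, 22.9, 29.2 and 26.9 in EGF arrays and 102, 112 and 158 in vector arrays. All stimulated arrays were below all vector arrays, and the log2 changes were -2.38 ± 0.26, adjusted p = 3.625e-07 and -1.71 ± 0.26, adjusted p = 4.538e-05. TRIM5, a restriction factor for retroviruses, fell by 1.10 in arrays labelled ERBB2 (adjusted p = 3.293e-05) and was at -0.23 with EGF (adjusted p = 0.3713), with a direct difference of -0.88 ± 0.17, adjusted p = 0.0007888. DTX3L, the partner of PARP9, and SP110, a nuclear body protein, showed the same arrangement (-0.86 and -0.81 in arrays labelled ERBB2, -0.12 and -0.08 in EGF arrays, and direct differences of -0.74 and -0.73, adjusted p = 0.0001025 and 0.000813). Averaged over all probe sets of the gene, the calls on TRIM5 ended in arrays labelled ERBB2 (-0.43, adjusted p = 0.05339) and in the direct comparison (0.1336), as did the direct call on SP110 (0.05746).

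Of 13 MHC class I pathway genes tested, 4 fell and 1 rose in arrays labelled ERBB2, and 7 fell and 1 rose in EGF arrays. The share that fell was 30.8% in arrays labelled ERBB2, near the 25.1% over all genes, and 53.8% in EGF arrays, against 19.0%, while 7.69% rose in each. TAPBP (tapasin), which loads peptide onto class I molecules, fell by 1.04 in arrays labelled ERBB2 and 0.67 in EGF arrays (adjusted p = 1.682e-07 and 8.795e-05), and HLA-E, a nonclassical class I heavy chain, by 0.85 and 0.65 (adjusted p = 9.576e-07 and 5.16e-05). HLA-C, a classical heavy chain, fell by 0.52 and 0.46 (adjusted p = 2.75e-05 and 0.0001976). TAP2, the partner of TAP1, rose by 0.72 and 0.44 (adjusted p = 4.181e-05 and 0.006888). HLA-B, HLA-F, PSMB8 and PSMB9 were also called lower in EGF arrays. With equal array medians none of these calls held (adjusted p = 0.07292, 0.116, 0.3957 and 0.1795). Those on PSMB8 and PSMB9 also ended without EGF replicate 3 (0.1845 and 0.07687). The share that fell with EGF thus depends on the scaling. Averaged over all probe sets of the gene, the EGF calls on TAPBP (0.06299), HLA-F (0.06928) and TAP2 (0.4616) ended. HLA genes are so alike that probe sets may share their signal, and which HLA transcript is measured is uncertain.

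**Figure D5:**
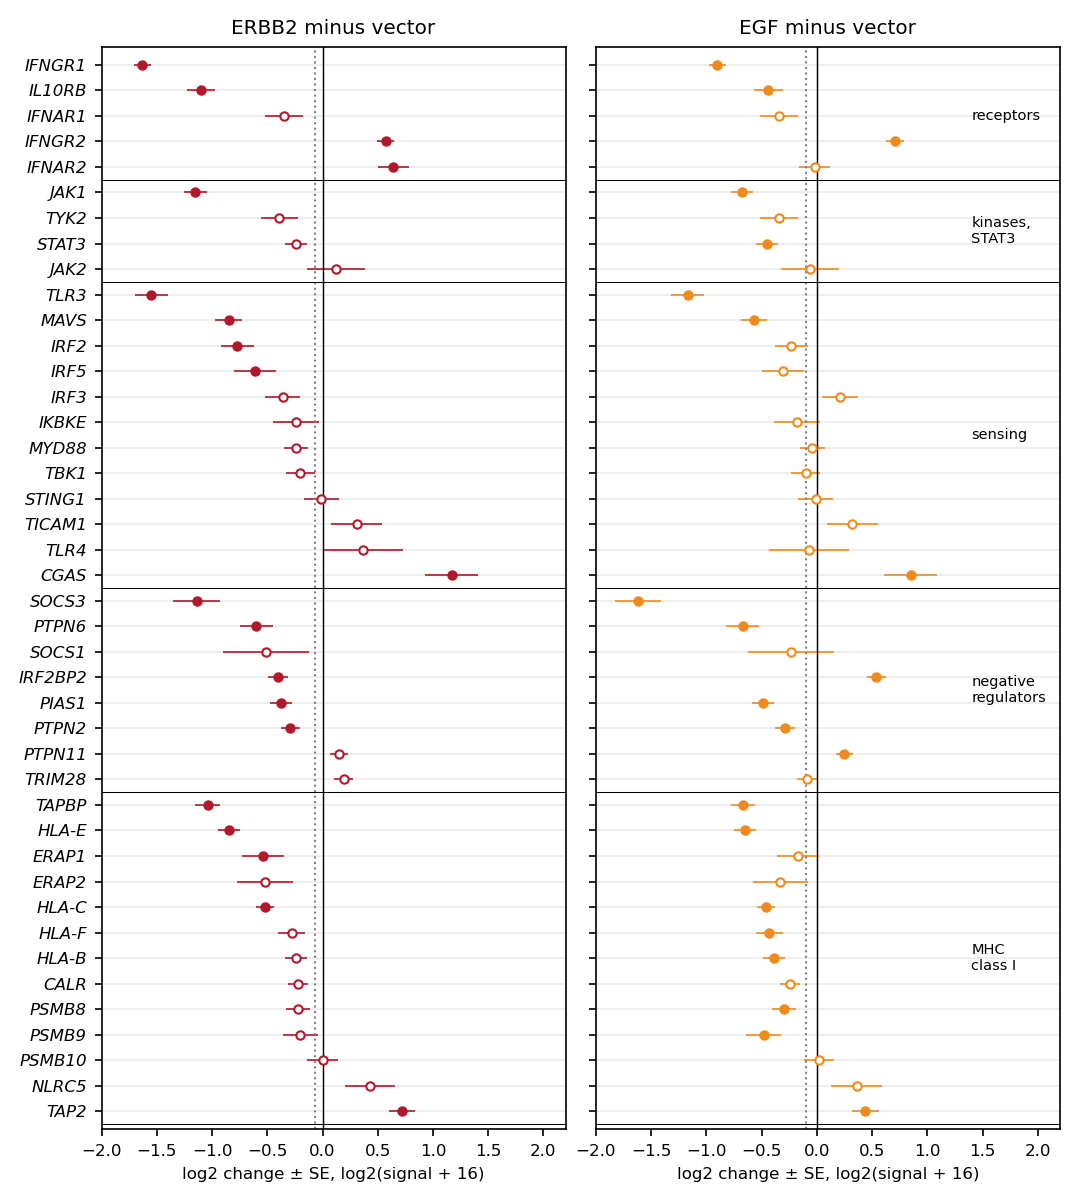
Log2 changes of signal + 16 (x axis, point and SE) against vector of the tested genes of 5 lists around the interferon response, in arrays labelled ERBB2 on the left and in EGF arrays on the right. Filled points are called at adjusted p under 0.05, and the dotted lines mark the medians of all genes. IFNGR1 at -1.63 and TLR3 at -1.55 lie farthest left in the left panel and SOCS3 at -1.62 in the right one, while CGAS lies on the right of both.

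The promoter motifs were set beside the calls. Of the 15 genes that fell in arrays labelled ERBB2, 11 had a window and 9 of these held the ISRE-type motif, while of the 21 not called 18 had a window and 12 held it, and all 3 that rose held it. With EGF the counts were 11 of 14 windows among genes that fell and 12 of 16 among those not called. Genes that fell without the motif were IRF1 and IRF9 in both comparisons, each with a GAS-type match as seen in the window of IRF9 above, and HERC6 with EGF. ISG15, whose window holds 2 overlapping copies, was not called, and IFIT5, with 3 copies, rose.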

How the data were processed

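RNA of 9 MCF10A cultures was hybridised to one-colour Affymetrix arrays of 54675 probe sets, with groups and replicates read off the titles. The authors deposited signal intensity on a linear scale for each probe set of each array, from MAS5 according to the submitters' processing notes, where no version or setting is given. With 2% trimmed at each end, the mean was 100.03 on every array, and that scaling would absorb in part any change shared by many genes. In GEO's platform annotation 41097 probe sets carried 1 gene symbol, 1801 carried several and 11777 carried none, and only those with 1 were named here.

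Values were taken as log2(signal + 16), which understates changes of dim genes. The 62 control probe sets were left out, as were probe sets with a mean up to the 40th percentile. The rest were tested with limma 3.58.1 under R 4.3.3 (lmFit, then eBayes with its trend option), as a single fit of the 3 group means to the 9 arrays and no replicate block, with Benjamini-Hochberg adjustment over all 32768 probe sets. An exact permutation test of 3 against 3 arrays could not reach a p under 0.1. The number of arrays limits the precision. Errors are SDs of signals (n = 3 per group) or SEs of log2 changes.

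Every one of the 43 genes is accounted for, those called in any comparison with their values on every array. From each other list at most 4 called genes with the largest change in a comparison were named, plus JAK1, IFNAR1 and IFNGR1. Further genes of these lists were named where they limit a count. The genes and lists were chosen with earlier results of these data known. Alternatives were other added constants, filters and scalings, no variance trend, array weights, only the arrays compared, a replicate block, all probe sets of a gene averaged, and leaving out each array. Replicate numbers did not pair the arrays, since deviations of arrays with the same number correlated between -0.03 and 0.019. Promoter sequences are RefSeq's, build GRCh38.p14.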

Additional observations from a re-analysis of the deposited data

Results flagged for a closer look

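Of the 39 genes tested, 4 had log2 values of opposite sign against vector in the 2 groups and a called direct difference between arrays labelled ERBB2 and EGF arrays. The share of all tested genes that meets both conditions was not counted, so the 4 are not read as a trait of this set. Of the 8 values against vector on the brightest probe sets, 2 were called, GBP1 in arrays labelled ERBB2 and HERC6 in EGF arrays. GBP1 was 0.86 above vector in arrays labelled ERBB2 and -0.34 in EGF arrays on its brightest probe set, a direct log2 difference of 1.19 (limma adjusted p = 6.969e-07). The difference kept its sign on all 3 tested probe sets, while the EGF value against vector was 0.01 and 0.60 on the other two, the last of them called. HERC6 was at 0.16 in arrays labelled ERBB2 and -0.58 in EGF arrays, a direct difference of 0.73 (adjusted p = 0.006479). OAS1 was at -0.29 in arrays labelled ERBB2 and 0.45 in EGF arrays, a direct difference of -0.74 (adjusted p = 0.002633), and USP18 at 0.35 and -0.32, a direct difference of 0.68 (adjusted p = 0.02641). Groups of 3 arrays were too small to be searched for single outlying arrays.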

How the results depend on the processing

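Of 51 called results for single interferon response genes, 36 kept their call and direction in every one of up to 20 alternatives that could be run for them, 15 lost the call in at least 1, and 0 reversed. Dim genes failed the filter at the 60th percentile and had no value there. The count called lower in arrays labelled ERBB2 (15) lay between 14 and 15 with single arrays left out. In the other alternatives it lay between 12 and 16. For EGF arrays (17) these ranges were 15 to 19 and 14 to 19. With equal array medians the EGF calls on HERC6 (adjusted p = 0.1167), IFIH1 (0.2203) and TAP1 (0.1579) ended. The median change of the genes in arrays labelled ERBB2 against vector (-0.31) moved to -0.192 with an added constant of 64 and lay between -0.329 and -0.271 with single arrays left out. That in EGF arrays (-0.372) moved to -0.471 and -0.271 with constants of 1 and 64 and to -0.213 with equal array medians, a scaling that moved the median of all probe sets in this comparison to 0.05, against -0.11 as deposited. The count called higher in EGF arrays (2) was 1 with a constant of 1, 1 without a filter and 0 without a variance trend, and lay between 0 and 3 with single arrays left out; it was 0 without vector replicate 2, without vector replicate 3 or without EGF replicate 1. With the replicate block the counts were 15 lower and 3 higher in arrays labelled ERBB2, 18 lower and 3 higher in EGF arrays, and 7 lower and 7 higher in the direct comparison, and no call was lost. With all probe sets of a gene averaged, direct differences reversed for genes outside the 43: JAK1 (0.163), PIAS1 (-0.319), TRIM14 (0.006) and TRIM25 (0.256). The cause of these differences was not tested. The number of arrays and the low signal of many members limit what could be detected.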

Other observations

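Genes outside the 43 whose promoter window held the ISRE-type motif, GAAA with any 2 bases and then GAAA again, were set beside all other tested genes with a window, as a description of 1 set of letters in 1 window. In arrays labelled ERBB2, 133 of 402 such genes (33.1%) were lower than in vector and 70 (17.4%) higher, against 25.5% lower and 21.7% higher among 10616 genes without the motif. In EGF arrays the shares were 21.9% lower and 17.9% higher with the motif, against 19.5% and 17.9% without it. In the direct comparison, 19.7% were lower and 11.2% higher in arrays labelled ERBB2 with the motif, against 16.3% and 13.2% without it. The median log2 changes with the motif were -0.16 in arrays labelled ERBB2 and -0.14 in EGF arrays, against -0.07 and -0.09 without it. These shares were not tested against each other.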
